A study of Mus musculus with 8 samples.

Results

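The antioxidant response and glutathione genes described here are Nfe2l2, Keap1, Hmox1, Nqo1, Txnrd1, Gclm, Gclc, Srxn1 and Prdx1. These 9 genes were taken by mouse symbol out of the 37583 gene identifiers counted in each library, and each symbol matched 1 identifier. On build GRCm38, Nfe2l2 and Srxn1 lie on chromosome 2, Gclm on 3, Prdx1 on 4, Hmox1 and Nqo1 on 8, Keap1 and Gclc on 9 and Txnrd1 on 10. The study made 8 RNA-seq libraries from splenic B cells of C57BL/6 mice. Naive B cells, for which the labels name no stimulus, gave 3 of them. Another 3, called CpG here, came from cells cultured for 3 days with CpG ODN1668, an oligonucleotide sensed by TLR9. The last 2, called TLR, came from such CpG cultures that also received, for the final 5 hours, LPS (sensed by TLR4), the phorbol ester PMA and the ionophore ionomycin. Values per library follow the replicate numbers of the labels. The submitters label the stimulated populations as Bregs, that is, regulatory B cells. The labels do not say whether replicates came from separate mice or cultures, so the p-values measure the spread between these libraries, which may be technical.

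The pathway turns on the transcription factor NRF2, the product of Nfe2l2. In unstressed cells KEAP1, an adaptor of a CUL3 ubiquitin ligase, marks NRF2 for destruction by the proteasome. When reactive cysteines of KEAP1 are modified by oxidants or electrophiles, NRF2 escapes, pairs with a small MAF protein in the nucleus and binds antioxidant response elements, at which BACH1 and BACH2 compete as repressors. The textbook targets repair and buffer oxidative damage: glutathione is made by glutamate-cysteine ligase (catalytic subunit Gclc, modifier subunit Gclm), thioredoxin is reduced by Txnrd1, peroxide is removed by Prdx1, over-oxidised peroxiredoxin is rescued by Srxn1, quinones are reduced by Nqo1 and haem is broken down by Hmox1. In the spleen, Hmox1 is known above all from the red pulp macrophages that recycle haem. NRF2 itself is controlled mainly at the protein level, which counts of messenger RNA do not show.

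Gene counts summed to 15804311 to 20069272 per library. Levels are given in CPM (read counts scaled by library size and TMM factors), in which 1 count was worth 0.0501 to 0.0645 CPM. They are shares of a library, so fewer cells of a type and less RNA per cell cannot be told apart. The 7 B cell markers used (Cd79a, Cd79b, Ms4a1, Pax5, Cd22, Ebf1 and Blnk) were present in every library and summed to 7727 to 11243 CPM in naive and CpG libraries, but to 2481 and 2606 CPM in the TLR libraries, where all 7 were lower than with CpG. Markers of macrophages and monocytes (18 genes) summed to 1981, 489 and 244 CPM for the naive libraries, to 33.0 to 66.9 CPM with CpG and to 23.6 and 31.5 CPM for the TLR libraries. At most 2 of the 18 were at 0 in a library. Markers of NK cells (8 genes) summed to 18.0 to 84.0 CPM in naive and to 1.74 to 2.99 CPM in CpG libraries, and with CpG all 8 of them, 8 of 10 T cell markers and 6 of 8 dendritic cell markers fell. Their part in the results against naive was not tested. Replicate 1 of each group carries the library prefix RCa1 and the other libraries RCa18. The labels do not say what the prefix means, and differences within each prefix are given beside the results of the 7 tested members. Reads placed at more than 1 position were 37.5% to 50.2% of the RCa1 libraries and 14.7% to 21.5% of the RCa18 libraries.

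Of the 9 genes, 7 had enough counts to be tested, while Nqo1 and Srxn1 lay near the detection limit in all groups. A gene is called here when its adjusted p is below 0.05 in edgeR's quasi-likelihood test, fitted over all 8 libraries and adjusted over all 13964 tested genes. With CpG against naive, Txnrd1 and Prdx1 rose and Hmox1 fell. That is 3 called of 7 tested members, where 45.5% of all tested genes were called, 23.5% as higher and 21.9% as lower. In the TLR libraries against CpG, Prdx1 rose and Txnrd1, Nfe2l2 and Keap1 fell, 4 of 7, where 38.8% of all genes were called, 19.0% as higher and 19.8% as lower. In the TLR libraries against naive, Txnrd1, Prdx1 and Gclm rose and Nfe2l2 and Keap1 fell, 5 of 7, where 61.2% of all genes were called, 31.6% as higher and 29.7% as lower. The share of members called was below that of all genes with CpG and above it in both TLR comparisons. With 7 members a single call moves this share widely, and the differences were not tested. The median size of change was close to that of all genes: 0.41, 0.42 and 0.86 on the log2 scale for the 7 members, against 0.50, 0.52 and 0.83 for all tested genes. The CpG libraries serve in the first and second comparison and the naive libraries in the first and last, so the comparisons are not independent of each other.

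**Figure D1:**
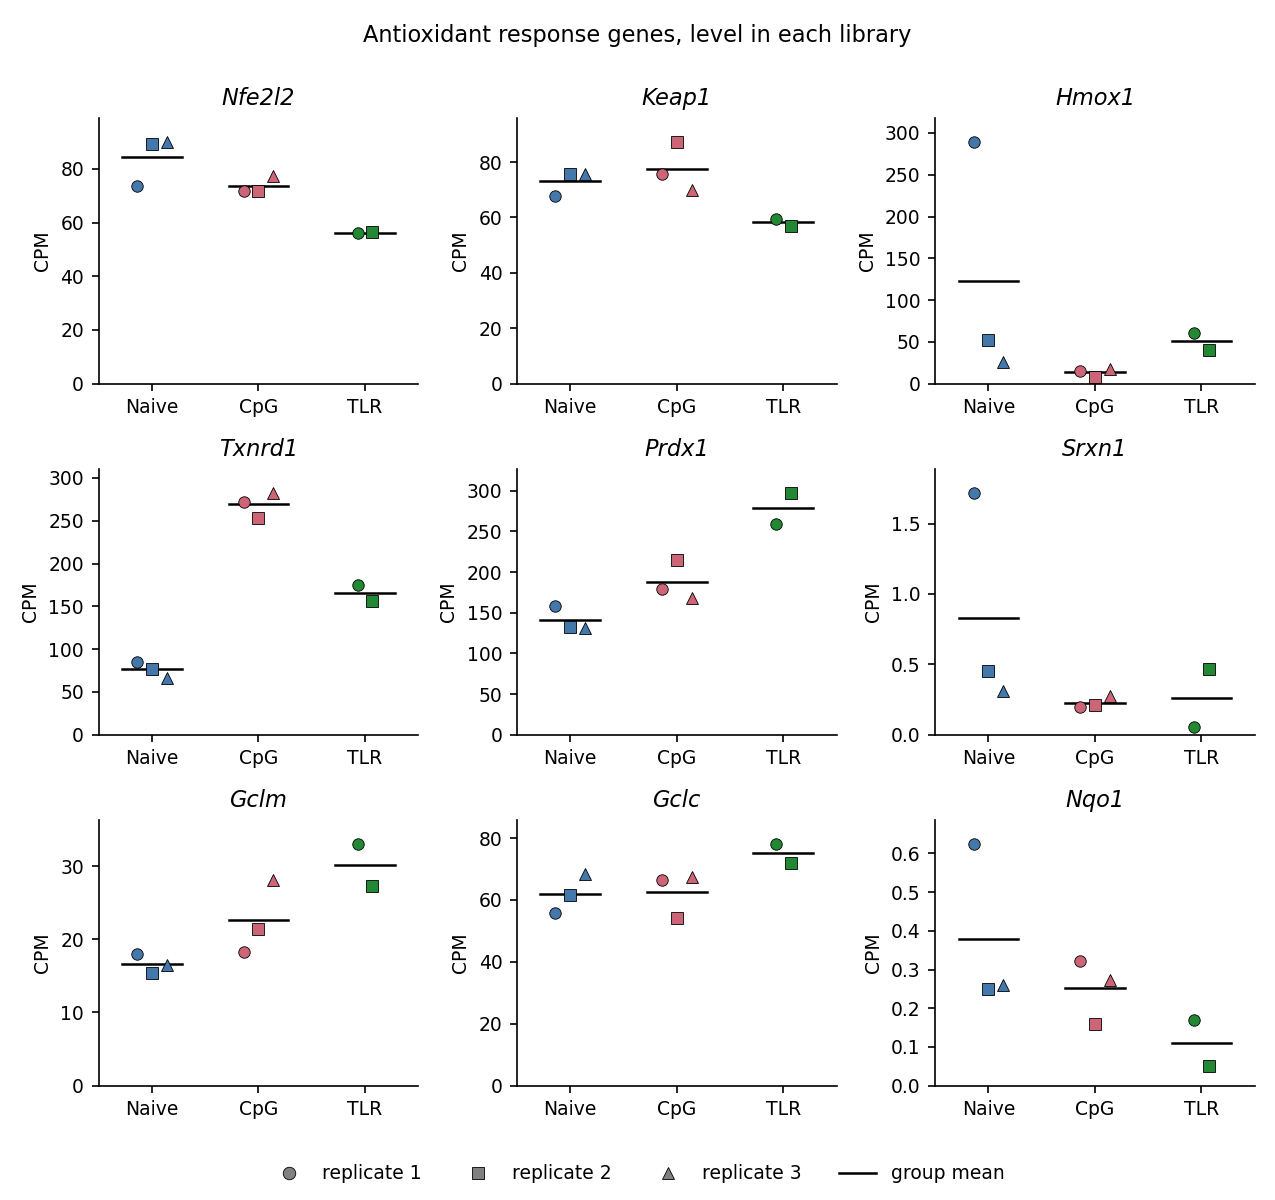
Level of each of the 9 genes in every library, in CPM on linear axes that start at 0, with a black line at the group mean (3 naive, 3 CpG and 2 TLR libraries). Txnrd1 peaked with CpG, Prdx1 was highest in the TLR libraries, Hmox1 was at 290 CPM in naive replicate 1, and Srxn1 and Nqo1 stayed under 2 CPM.

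Promoter windows were available for 7 of the 9 genes, and the binding site of NRF2 was looked for in them. Each window runs from 250 bases before to 50 bases after a RefSeq start site (build GRCm38.p6, while the counts were made on mm9). The core of the antioxidant response element was searched as TGACNNNGC on both strands. It was found in a window of Txnrd1, Gclm, Prdx1, Nfe2l2 and Srxn1, and not in the windows of Keap1 and Nqo1, while 3781 of 27025 genes with a window hold it (12.4% of 32851 windows). Bases outside these short windows were not searched, so a window without a match does not show that the gene lacks the element. The lines below show the match, in capitals, with its neighbouring bases, for the 3 genes that rose in the TLR libraries against naive and then for Nfe2l2. They are written on the strand of the gene, so that a core on the other strand, as in the first 3 lines, reads as its reverse complement.
Txnrd1, chr10:82859099-82859137, plus strand: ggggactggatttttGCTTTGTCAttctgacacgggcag
Gclm, chr3:122245408-122245446, plus strand: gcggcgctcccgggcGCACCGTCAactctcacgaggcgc
Prdx1, chr4:116685451-116685489, plus strand: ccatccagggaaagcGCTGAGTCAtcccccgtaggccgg
Nfe2l2, chr2:75704880-75704913, minus strand: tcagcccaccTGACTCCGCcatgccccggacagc

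The matches begin 92 bases before the start site in Txnrd1 (in 1 of its 3 windows), 134 in Gclm, 133 in Prdx1 and 240 in Nfe2l2. In Prdx1 the match overlaps an AP-1 site, TGANTCA, read as TGAGTCA, and a second AP-1 site lies 237 bases before the start. AP-1 sites stood in 8.97% of all genes with a window. Srxn1 has its core match after the start site and 2 AP-1 sites before it, at 102 and 45 bases: its 37-base stretch chr2:152105464-152105500, plus strand, reads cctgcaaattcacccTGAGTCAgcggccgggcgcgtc. A match is a run of letters and not a measured site, and the members holding it went in different directions: Txnrd1, Gclm and Prdx1 were higher in the TLR libraries than in naive ones, Nfe2l2 was lower, and Srxn1 was barely detected.

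Neither gene of the sensor pair was called with CpG, and both fell in the TLR libraries. Nfe2l2 (ENSMUSG00000015839), the gene of NRF2, stood at 73.7, 89.2 and 90.1 CPM for the naive libraries, 71.8, 71.9 and 77.4 CPM for the CpG libraries and 56.2 and 56.4 CPM for the TLR libraries. Naive and CpG libraries overlapped, and both TLR libraries lay below all others. The change with CpG was not called (log2 fold change -0.19 ± 0.11 SE, edgeR adjusted p = 0.170, n = 3 and 3). It fell by 0.39 ± 0.12 from CpG to TLR (edgeR adjusted p = 0.0302) and by 0.58 ± 0.12 from naive to TLR (adjusted p = 0.00238). Within RCa1 and RCa18 the differences were -0.04 and -0.26 with CpG, -0.35 and -0.40 from CpG to TLR, and -0.39 and -0.67 from naive to TLR. The call against CpG was lost without CpG replicate 3, TLR replicate 1 or TLR replicate 2 (adjusted p = 0.0686 to 0.138), and in a fit of these groups alone (0.0558) or with no filter on low counts (0.0603).

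Keap1 (ENSMUSG00000003308), the gene of the NRF2 inhibitor, stood at 67.9, 75.7 and 75.6 CPM in naive, at 75.7, 87.4 and 69.8 CPM in CpG and at 59.6 and 56.8 CPM in TLR libraries. Here too naive and CpG overlapped and the TLR libraries were lowest. With CpG the log2 fold change was 0.09 ± 0.11 (edgeR adjusted p = 0.553). It fell by 0.42 ± 0.13 from CpG to TLR (edgeR adjusted p = 0.0269) and by 0.33 ± 0.13 from naive to TLR (adjusted p = 0.0456). Both calls turned on single libraries: the first was lost without CpG replicate 2, TLR replicate 1 or TLR replicate 2 (adjusted p = 0.0766, 0.0974 and 0.143), and the second without any one of naive replicates 2 and 3 and TLR replicates 1 and 2 (0.116, 0.116, 0.121 and 0.196). In fits of the RCa18 libraries alone the adjusted p was 0.0688 and 0.0655. The first call was also lost in a fit of these groups alone (0.0664), and the second with no filter (0.0728). The differences within RCa1 and RCa18 were 0.16 and 0.05 with CpG, -0.34 and -0.46 from CpG to TLR, and -0.19 and -0.41 from naive to TLR. Of the exons of Keap1, 10.9% of the bases overlap Gm16754 on the opposite strand, and the counting ignored strand.

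Among the partners and competitors of NRF2, Bach1 fell at each step while Mafg and Maff rose in the TLR libraries. Bach1, the repressor that competes for the same elements and is known for holding Hmox1 down, stood at 44.3, 46.7 and 46.8 CPM in naive, at 16.0, 16.7 and 17.6 CPM in CpG and at 9.17 and 8.36 CPM in TLR libraries. The groups did not overlap, and the level fell at each step, by 1.45 ± 0.12 with CpG (edgeR adjusted p = 1.61e-05) and by a further 0.94 ± 0.14 in TLR (adjusted p = 0.000567). Bach2, its B cell relative, rose from 307 to 439 CPM with CpG (0.52 ± 0.11, edgeR adjusted p = 0.00473) and was at 360 CPM in TLR (adjusted p = 0.103 against CpG). The small MAF genes went separate ways. Mafk fell from 71.6 ± 6.59 to 33.0 ± 3.84 CPM (SD, n = 3 and 3) with CpG, by 1.12 ± 0.13 on the log2 scale. Mafg rose from 57.2 ± 7.57 CPM with CpG to 115 ± 5.09 CPM in TLR (1.00 ± 0.13) and Maff from 2.37 ± 0.700 to 10.2 ± 0.748 CPM (2.10 ± 0.32), with n = 3 and 2. Btrc, an adaptor of another ligase that targets NRF2, fell from 48.3 ± 1.69 to 26.9 ± 3.79 CPM with CpG. In all, of 13 regulators and partners tested, 3 rose (Bach2, Cul3 and Sqstm1) and 4 fell (Bach1, Mafk, Btrc and Nfe2) with CpG. The call of Sqstm1 was lost without any one of the naive libraries or CpG replicate 3, and that of Nfe2 without CpG replicate 2. In TLR against CpG 2 rose and 3 fell, and against naive 5 rose and 6 fell (4 and 5 without naive replicate 1). Of all genes 23.5% rose and 21.9% fell with CpG, 19.0% and 19.8% in TLR against CpG, and 31.6% and 29.7% in TLR against naive.

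**Figure D2:**
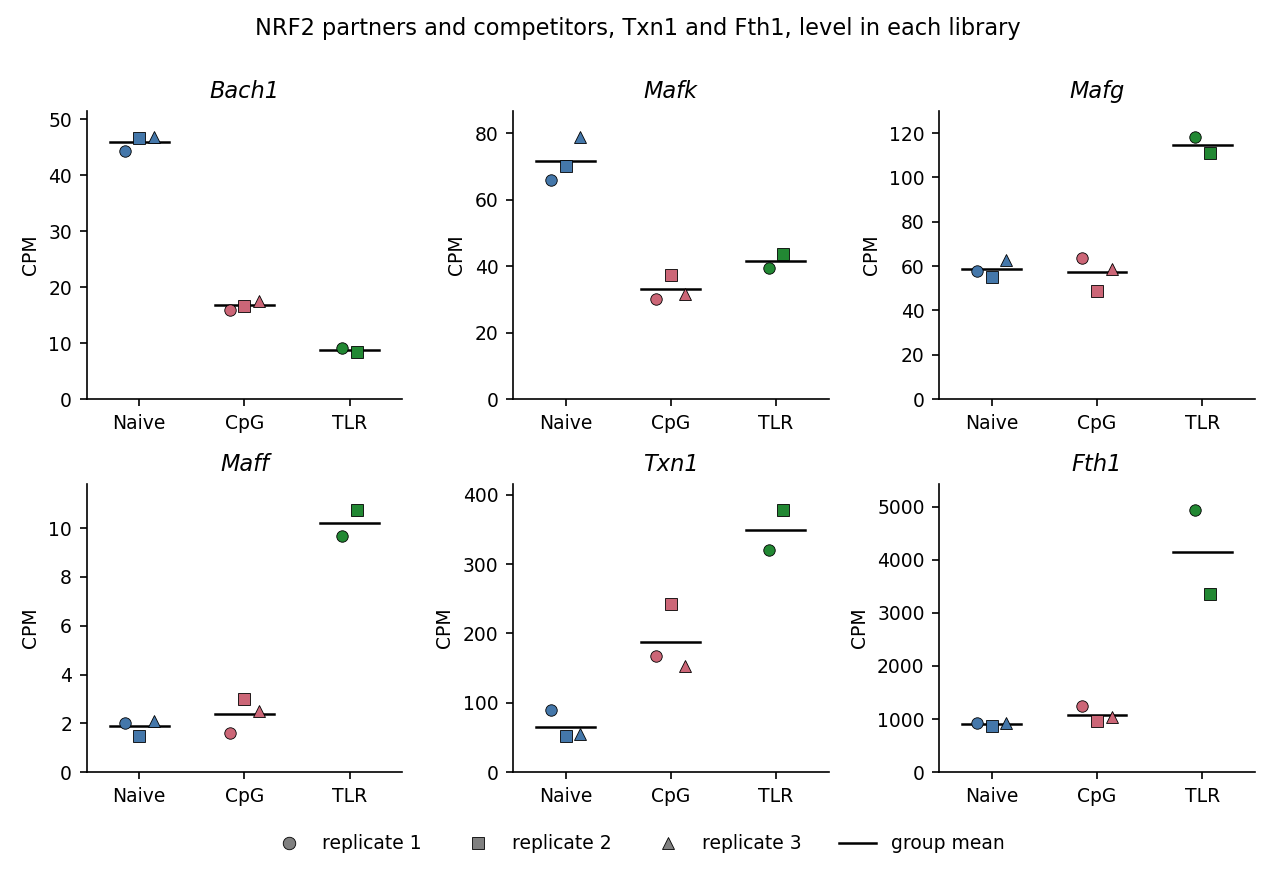
Levels in CPM (linear axes from 0) of the NRF2 competitor Bach1, the small MAF genes Mafk, Mafg and Maff, thioredoxin (Txn1) and ferritin heavy chain (Fth1) in every library, with a line at each group mean. Bach1 dropped at both steps, while Mafg, Maff and Fth1 set the TLR libraries apart from the naive and CpG libraries.

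Txnrd1 (ENSMUSG00000020250), the cytosolic thioredoxin reductase, had the largest rise with CpG among the 7 tested genes. It stood at 84.9, 77.1 and 66.6 CPM for the naive libraries, 271, 254 and 283 CPM for the CpG libraries and 174 and 157 CPM for the TLR libraries. The groups did not overlap in any comparison: every CpG library was above every TLR library, and both were above all naive ones. With CpG it rose 3.53-fold (log2 fold change 1.82 ± 0.12, edgeR adjusted p = 5.70e-06). From CpG to TLR it fell by 0.70 ± 0.13 (adjusted p = 0.00241), and it stayed 2.17-fold above naive (1.12 ± 0.13, adjusted p = 5.12e-05). Within the prefixes, the rise with CpG was 1.68 for RCa1 and 1.90 for RCa18, the fall from CpG to TLR was -0.64 and -0.77, and the rise from naive to TLR 1.04 and 1.13. All of its calls held in every alternative fit that was run.

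Prdx1 (ENSMUSG00000028691), a cytosolic peroxiredoxin that reduces hydrogen peroxide with electrons from thioredoxin, rose at each step. It stood at 159, 132 and 132 CPM in naive, at 179, 214 and 169 CPM in CpG and at 259 and 298 CPM in TLR libraries. The order of the groups was naive, CpG, TLR, without overlap. The log2 fold change was 0.41 ± 0.13 with CpG (edgeR adjusted p = 0.0277), 0.57 ± 0.14 from CpG to TLR (adjusted p = 0.0113) and 0.98 ± 0.14 from naive to TLR (adjusted p = 0.000253). The first call was lost without naive replicate 2, naive replicate 3 or CpG replicate 2 (adjusted p = 0.105, 0.109 and 0.0930), and the second without TLR replicate 2 (0.0965). Within the prefixes the first difference was 0.18 for RCa1 and 0.53 for RCa18, the second 0.53 and 0.65, and that from naive to TLR 0.71 and 1.18. Of the 50-base stretches of its transcripts, 8.81% also occur in transcripts of other genes. How many reads could not be placed uniquely for this reason was not tested.

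Thioredoxin itself, Txn1, links these genes, since Txnrd1 reduces it and Prdx1 draws on it. It was named after its values were seen. Txn1 rose from 65.1 ± 20.8 CPM in naive to 187 ± 47.6 CPM in CpG (1.53 ± 0.24, edgeR adjusted p = 0.000711) and to 349 ± 40.9 CPM in TLR libraries (0.89 ± 0.25 over CpG, adjusted p = 0.0197). The call against CpG was lost without CpG replicate 1, CpG replicate 3 or TLR replicate 2, with an adjusted p of up to 0.119. From CpG to TLR, Txn1 and Prdx1 were thus higher and Txnrd1 lower. In the list of thioredoxin, peroxiredoxin and dismutase genes (20 tested) 9 rose and 4 fell with CpG (8 and 3 without naive replicate 1). From CpG to TLR 8 rose and 3 fell, and 15 rose and 4 fell in TLR against naive, against the shares of all genes given above. The calls of Msra, Msrb2, Msrb3, Txnip and Sesn3 with CpG depended on single libraries. Prdx3, the mitochondrial peroxiredoxin, rose from 65.9 ± 2.41 to 114 ± 9.44 CPM with CpG and to 166 ± 9.16 CPM in TLR. Catalase (Cat) fell from 185 ± 20.1 to 95.8 ± 9.19 and 39.8 ± 1.45 CPM, and Sesn1, a stress-induced sestrin, from 235 ± 20.0 to 107 ± 12.2 and 42.5 ± 8.42 CPM. Txn2, the mitochondrial thioredoxin, rose from 122 ± 17.6 CPM in CpG to 251 ± 13.7 CPM in TLR.

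Srxn1 (ENSMUSG00000032802), the sulfiredoxin that rescues over-oxidised peroxiredoxins, had 33, 9 and 6 counts for the naive libraries, 3, 4 and 5 for the CpG libraries and 1 and 9 for the TLR libraries. It did not pass the filter on low counts. Most of its naive counts lay in replicate 1, the library with the highest macrophage markers, and the part of other cells in this was not tested. In the fit with no filter none of its changes was called (log2 fold change -1.84 ± 0.76 with CpG, edgeR adjusted p = 0.0798).

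Nqo1 (ENSMUSG00000003849), the quinone reductase often used as a readout of NRF2 in other tissues, had 12, 5 and 5 counts in naive, 5, 3 and 5 in CpG and 3 and 1 in TLR libraries. These are 0.0516 to 0.625 CPM. It did not pass the filter either, and with no filter the log2 fold change was -0.60 ± 0.74 with CpG (edgeR adjusted p = 0.575) and -1.75 ± 0.94 in TLR against naive (adjusted p = 0.166). No change in Nqo1 was called.

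**Figure D3:**
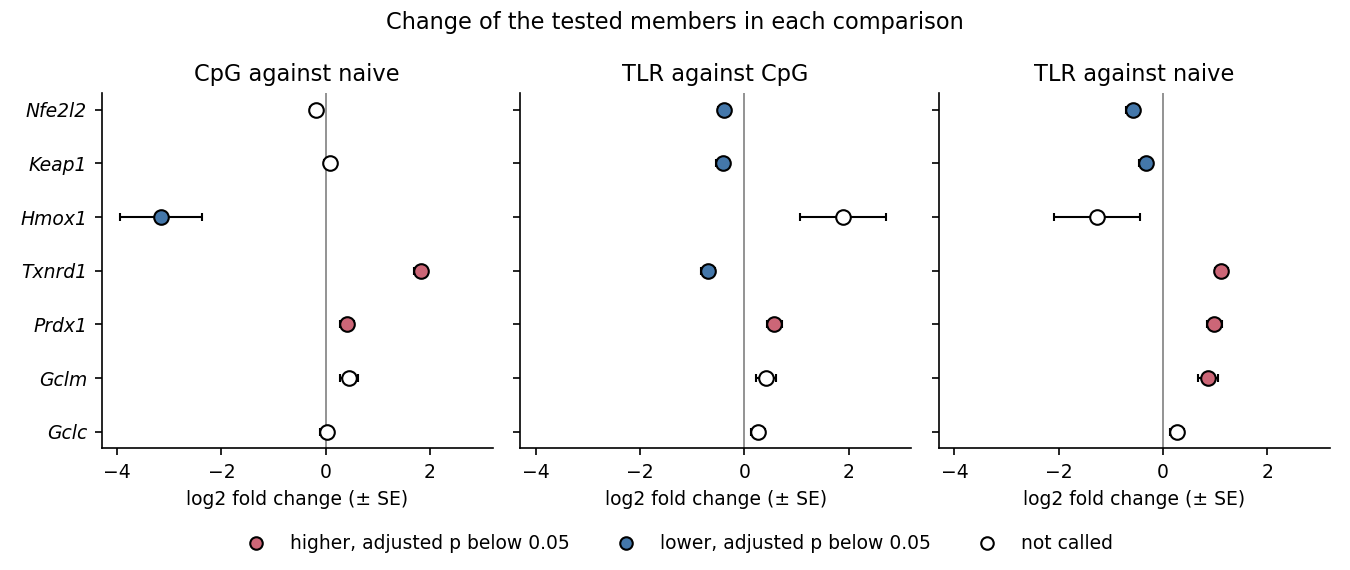
Log2 fold change with its SE (bars) of the 7 tested genes in the 3 comparisons, from the edgeR fit over all 8 libraries, with filled points for genes called at an adjusted p below 0.05. Txnrd1 turned from 1.82 with CpG to -0.70 in the last step, Prdx1 was above 0 in each, and the wide bars belong to Hmox1.

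The subunits of the ligase that carries out the limiting step of glutathione synthesis are encoded by Gclm and Gclc, of which only Gclm was called, in TLR against naive. Gclm (ENSMUSG00000028124), the modifier subunit, stood at 18.0, 15.3 and 16.5 CPM in naive, at 18.3, 21.4 and 28.1 CPM in CpG and at 33.1 and 27.3 CPM in TLR libraries. The CpG values lay above the naive ones only narrowly, and CpG replicate 3 reached into the TLR range. From naive to TLR it rose 1.81-fold (log2 fold change 0.86 ± 0.20, edgeR adjusted p = 0.00367). The single steps were not called (0.44 ± 0.18, adjusted p = 0.0678, and 0.42 ± 0.20, adjusted p = 0.120). With CpG the difference was 0.02 within RCa1 and 0.62 within RCa18, and it was called without CpG replicate 1 (adjusted p = 0.0203) and when only the RCa18 libraries entered (0.0281). In the last step it was 0.86 within RCa1 and 0.16 within RCa18, and called without CpG replicate 3 (0.0286). From naive to TLR the prefixes gave 0.88 and 0.78. Of the exon bases of Gclm, 8.58% overlap Gm17494 or Gm6061, which had at most 4 counts in a library. Among the 50-base stretches of Gclm transcripts, 4.58% also occur in transcripts of other genes. How many reads of Gclm went uncounted for either reason was not tested.

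Gclc (ENSMUSG00000032350), the catalytic subunit, stood at 55.9, 61.8 and 68.4 CPM in naive, at 66.3, 54.3 and 67.6 CPM in CpG and at 78.2 and 72.1 CPM in TLR libraries. Naive and CpG libraries overlapped, and both TLR libraries lay above them. No change was called: 0.02 ± 0.12 with CpG (edgeR adjusted p = 0.929), 0.26 ± 0.14 from CpG to TLR (0.163) and 0.28 ± 0.14 from naive to TLR (0.105). The sign of the first value depended on the scaling. Within RCa1 and RCa18 the differences were 0.25 and -0.10 with CpG, 0.24 and 0.25 from CpG to TLR, and 0.48 and 0.15 from naive to TLR.

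The ratio of Gclm to Gclc counts within a library was 0.322, 0.248 and 0.242 for the naive libraries, 0.275, 0.394 and 0.416 for the CpG libraries and 0.423 and 0.379 for the TLR libraries. Naive and CpG libraries overlapped, because CpG replicate 1 lay below naive replicate 1. The mean difference with CpG was 0.41 on the log2 scale, with a two-sided exact permutation p of 0.20, where 3 against 3 libraries cannot go below 0.10. The TLR ratios are given without a test.

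The rest of the glutathione pathway was on the list of 31 genes, 30 of them tested. With CpG 13 rose and 5 fell (15 and 3 without naive replicate 1), where 23.5% and 21.9% of all genes did. In TLR against CpG 8 rose and 7 fell (19.0% and 19.8% of all genes), and in TLR against naive 18 rose and 7 fell (31.6% and 29.7%). Gss, which joins glycine in the second step of synthesis and was named after its values were seen, rose from 12.3 ± 1.46 to 21.8 ± 1.77 and 36.1 ± 0.864 CPM over the 3 groups (0.82 ± 0.14 and 0.73 ± 0.15, edgeR adjusted p = 0.00119 and 0.00396). Enzymes that break down glutathione or its products went in both directions. Chac1 rose from 0.258 ± 0.139 CPM in naive to 25.5 ± 18.5 CPM in CpG and 111 ± 69.8 CPM in TLR, with CpG libraries at 19.9, 10.5 and 46.1 CPM and TLR libraries at 160 and 61.6 CPM. Its rise from CpG to TLR was lost without TLR replicate 1. Chac2 rose with CpG from 4.34 ± 0.988 to 24.6 ± 5.06 CPM and fell to 9.37 ± 0.840 CPM in TLR, and Ggt1 rose from 0.172 ± 0.0806 to 9.45 ± 3.05 CPM and fell to 2.54 ± 0.166 CPM. Ggct, Ggt5 and Oplah, named after their values were seen, fell with CpG, Ggct from 32.8 ± 2.98 to 12.2 ± 2.63 CPM and Ggt5 from 4.03 ± 1.46 to 0.967 ± 0.642 CPM. The call of Oplah was lost without naive replicate 1 or 2 or CpG replicate 1 or 2. Glrx3, a glutaredoxin, and Gstt2, a glutathione transferase, rose from naive to TLR by 1.53 ± 0.12 and 3.21 ± 0.27. Mgst2, a membrane-bound transferase, fell over the same comparison by 3.15 ± 0.27. Slc7a11, the cystine importer and a classic NRF2 target, was named after its values were seen. It rose from 0.290 ± 0.0994 CPM in naive to 1.37 ± 0.178 CPM in TLR (2.21 ± 0.56, edgeR adjusted p = 0.00644), which is 4 to 8 counts against 22 and 29 in a library.

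Hmox1 (ENSMUSG00000005413), the inducible haem oxygenase, varied more among naive libraries than any other of the 9 genes. It stood at 290, 52.0 and 25.8 CPM for the naive libraries, 15.5, 7.80 and 17.9 CPM for the CpG libraries and 61.2 and 40.6 CPM for the TLR libraries. All CpG libraries were below all naive and all TLR libraries, and the TLR libraries lay within the naive range. With CpG it fell by 3.16 ± 0.79 on the log2 scale (edgeR adjusted p = 0.00914), or by 1.52 without naive replicate 1 (adjusted p = 0.0124). Within the prefixes the difference was -4.23 for RCa1 and -1.63 for RCa18. From CpG to TLR the log2 fold change was 1.89 ± 0.82 and not called (adjusted p = 0.0951). It was called in the fit of these groups alone (adjusted p = 0.00344) and with no filter (0.0164), and the prefixes gave 1.98 and 1.78. From naive to TLR it was -1.27 ± 0.83 (adjusted p = 0.210), or 0.37 without naive replicate 1 (0.457), and the prefixes went in opposite directions, -2.24 for RCa1 and 0.15 for RCa18.

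The macrophage markers moved with Hmox1 among the naive libraries. Per 100 CPM of the summed markers there were 14.6, 10.6 and 10.6 CPM of Hmox1 for the naive libraries, 31.7, 23.7 and 26.8 for the CpG libraries and 259 and 129 for the TLR libraries, a ratio chosen after the values were seen. Of the 18 markers 16 fell with CpG, while Cd5l and Marco were not called. Cd5l stood at 70.6, 16.2 and 6.68 CPM in naive and at 18.4, 13.3 and 22.0 CPM in CpG libraries. The make-up of the sum thus differed between the groups, which limits what the ratio can show. Slc40a1, the iron exporter of haem-recycling macrophages, stood at 300.3, 74.1 and 34.0 CPM in naive and at 0.516, 0.214 and 1.09 CPM in CpG libraries. The part of these cells in the fall of Hmox1 was not tested. In the TLR libraries the summed markers were 23.6 and 31.5 CPM, below every CpG library, while Hmox1 was above every CpG library.

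**Figure D4:**
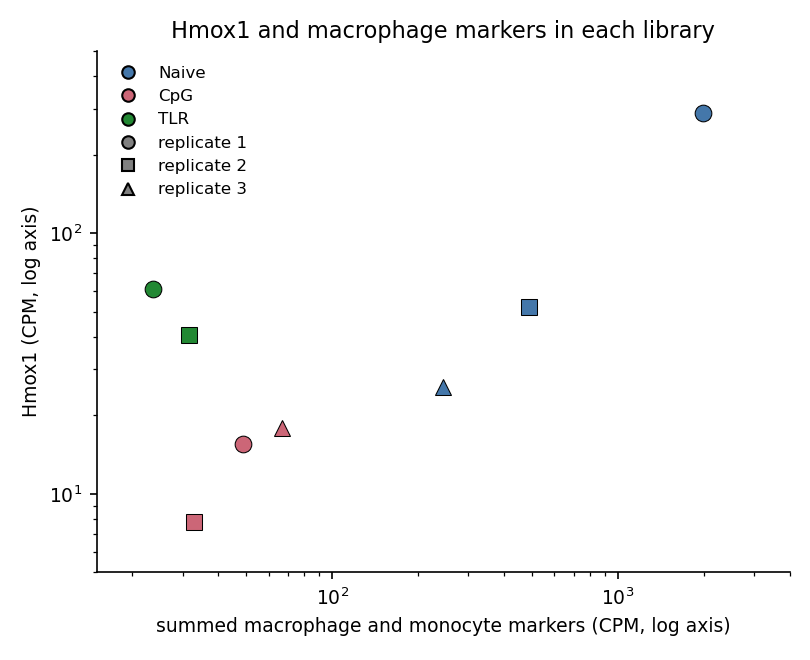
Hmox1 against the summed 18 macrophage and monocyte markers, both in CPM on log axes, with 1 point for each library (colour for the group, shape for the replicate number). The naive libraries run from 244 to 1981 CPM of markers as Hmox1 goes from 25.8 to 290 CPM, and the TLR libraries combine 40.6 and 61.2 CPM of Hmox1 with 31.5 and 23.6 CPM of markers.

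Of 19 other genes of haem and iron handling, 5 rose and 1 (Slc40a1) fell with CpG, 6 rose and 1 (Blvrb) fell in TLR against CpG, and 9 rose and 2 fell in TLR against naive. The shares of all genes were 23.5% higher and 21.9% lower, then 19.0% and 19.8%, then 31.6% and 29.7%. Several of the rises depended on single libraries. These were Alas1 and Slc11a2 with CpG, and Alas1, Aco1, Flvcr2 and Ftl1 in TLR against CpG. In TLR against naive they were Slc48a1, Slc11a2 and Cpox. Fth1, the ferritin heavy chain that stores the iron which haem oxygenase frees, was at 904 ± 37.5 CPM before and 1085 ± 153 CPM after CpG (edgeR adjusted p = 0.227). It rose to 4934 and 3348 CPM in TLR replicates 1 and 2 (1.93 ± 0.19 over CpG, adjusted p = 4.90e-05). Tfrc, the transferrin receptor, rose from 122 ± 16.2 to 196 ± 41.9 and 496 ± 49.7 CPM. Blvrb, a flavin and biliverdin reductase, fell from 62.2 ± 19.4 CPM in CpG to 19.9 and 19.9 CPM in the TLR libraries. Blvra, the other biliverdin reductase on the list, was not called in any comparison of the fit over all 8 libraries. Erythroid markers (7 genes) summed to 55.1, 4.66 and 10.8 CPM for the naive libraries, 3.48 to 12.1 CPM with CpG and 34.2 and 36.6 CPM for the TLR libraries. Of the latter, Hbb-bt, a beta globin that rose from CpG to TLR (2.28 ± 0.67, edgeR adjusted p = 0.0234), made up 33.3 and 36.3 CPM, while Hbb-bs had 9 and 0 counts. Their part in the haem and iron results was not tested. Ferritin genes have near-identical copies in the genome, so their counts of uniquely placed reads are uncertain.

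Other NRF2 targets went in both directions, and some of them also stand on another list. Of 27 listed 22 were tested. With CpG 8 rose and 4 fell (2 without naive replicate 1), where 23.5% and 21.9% of all genes did. The calls of Mgst1, Tkt, Gstp1 and Cbr3 among the rises, and of Osgin1 and Abcc1 among the falls, depended on single libraries. In TLR against CpG 5 rose and 5 fell (19.0% and 19.8% of all genes), and in TLR against naive 11 rose and 6 fell (31.6% and 29.7%). Abcc4, an exporter of conjugates, rose from 28.5 ± 0.877 to 56.5 ± 6.56 CPM with CpG. Esd, which acts on a glutathione adduct of formaldehyde, rose from 48.9 ± 2.08 to 86.5 ± 8.47 CPM. Ephx1, the microsomal epoxide hydrolase, fell from 167 ± 9.70 in naive to 88.5 ± 6.08 in CpG and 12.5 ± 3.26 CPM in TLR. Mgst1, a membrane-bound transferase, fell from 12.5 ± 1.61 CPM in CpG to 0.814 ± 0.129 CPM in TLR.

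NADPH is consumed by Txnrd1 and glutathione reductase, and the list for its supply had 13 tested genes. Some of these, such as Tkt, Taldo1, Pgls, Nadk and Nadk2, encode enzymes that do not themselves reduce NADP. With CpG 8 rose and 5 were not called (6 rose without naive replicate 1), against shares over all genes of 23.5% higher and 21.9% lower. Among those 8 were Tkt, Pgls, Nadk and Nadk2. The calls of Tkt, Pgls, Nadk2 and Mthfd1 with CpG depended on single libraries. In TLR against CpG 3 rose and 2 fell, and against naive 8 rose and 5 were not called. Single libraries also decided the call of Tkt in TLR against CpG and those of G6pdx and Nadk2 in TLR against naive. Idh2, a mitochondrial isocitrate dehydrogenase, rose from 32.7 ± 5.97 to 94.8 ± 5.24 CPM with CpG, and Mthfd2, of mitochondrial folate metabolism, from 24.8 ± 2.15 to 185 ± 76.0 and then 529 ± 161 CPM. The NADPH oxidase, which makes superoxide, had 7 tested genes, of which 2 rose and 2 fell with CpG and 3 fell in TLR against CpG. Cybb, its catalytic subunit, rose from 500.3 ± 54.8 to 879 ± 117 CPM with CpG and fell to 507 ± 56.9 CPM in TLR. Ncf1 rose with CpG (0.58 ± 0.11) and fell in TLR (-0.77 ± 0.13), and Ncf4 fell from CpG to TLR (-1.83 ± 0.20).

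Levels of different genes were compared per exon length, in RPKM. In naive libraries Hmox1 spanned 14.7 to 165 RPKM, which overlapped Prdx1, Nfe2l2, Gclc and Keap1 and lay above the other genes. Prdx1 followed with 46.2 ± 5.06 RPKM, Nfe2l2 with 22.2 ± 2.43, Gclc with 16.5 ± 1.65, Keap1 with 15.6 ± 0.949, Txnrd1 with 10.8 ± 1.30 and Gclm with 2.64 ± 0.215 (SD, n = 3). Gclc and Keap1 did not differ beyond their spread, there or with CpG. In CpG libraries Txnrd1 was second with 38.0 ± 2.07 RPKM, behind Prdx1 with 61.6 ± 7.91, and Hmox1 was at 7.84 ± 3.01, overlapping Gclm at 3.59 ± 0.801. In TLR libraries Prdx1 stood at 91.5 ± 8.99 RPKM, Hmox1 at 29.1 ± 8.31 and Txnrd1 at 23.4 ± 1.77, the latter pair overlapping, and then Gclc at 19.9 ± 1.15, Nfe2l2 at 14.8 ± 0.0404, Keap1 at 12.4 ± 0.425 and Gclm at 4.80 ± 0.646 (n = 2). Nqo1 and Srxn1 were below 1 RPKM in every library. Exon lengths came from the union of all annotated transcripts, which can understate the level of a gene with long rare exons. Which exons were used was not tested.

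**Figure D5:**
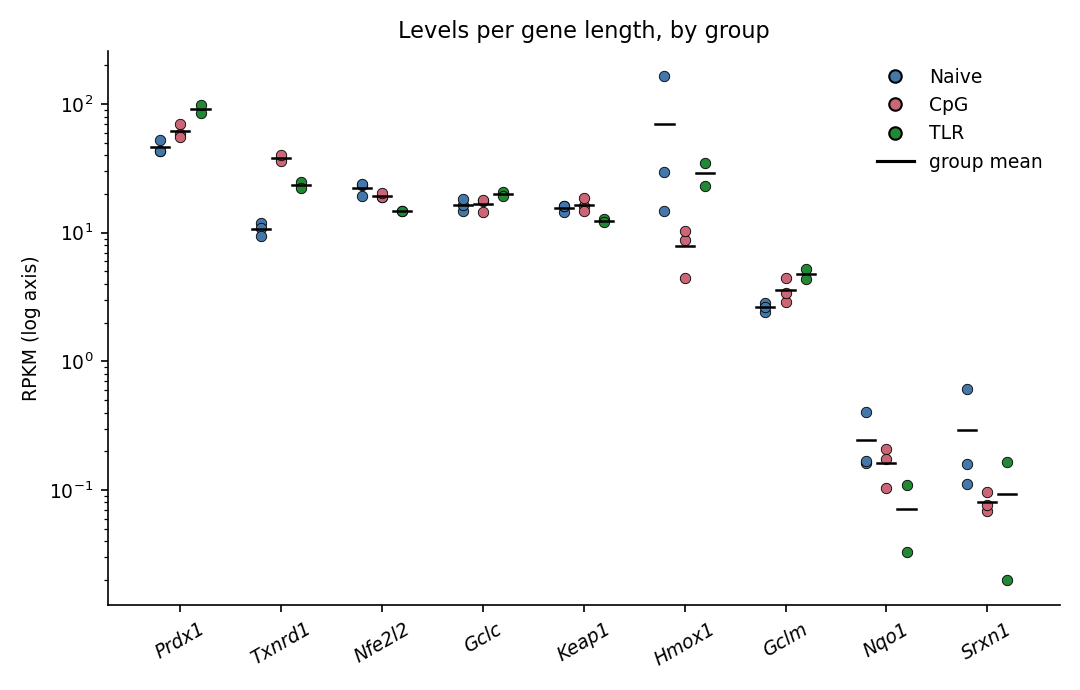
Level per exon length in RPKM (log axis) of the 9 genes, ordered by their CpG mean, with 1 point for each library and a line at the group mean. Prdx1 was highest in CpG and TLR libraries, Txnrd1 moved from 10.8 to 38.0 and 23.4 RPKM over the groups, and Nqo1 and Srxn1 lay below 1 RPKM.

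The genes most alike in pattern were found by Pearson's r of log2 CPM over the 8 libraries, which share their scaling and their groups, so that likeness within and between groups cannot be told apart. Closest to Txnrd1 were Plscr1, Ms4a6c and Zeb2 (0.9975, 0.996 and 0.995). Closest to Prdx1 was Efhd2 (0.998), followed by Malsu1 (0.987) and Psma5. Hmox1 was closest to Hpgds (0.964), Rxra (0.947) and Bid (0.921), Nfe2l2 to Sufu (0.984), Gclm to Naf1 (0.975), Gclc to Mcu (0.948) and Keap1 to Narf (0.937). None of the 7 tested members was among the 3 closest genes of another, and Nqo1 and Srxn1 were too low to enter this search.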

How the data were processed

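The deposited values are raw counts of reads per gene, 1 file for each library. The submitters' processing notes name STAR, HTSeq and edgeR with build mm9, without versions, and the file names say that counting ignored strand. For the annotation behind the counts, no release is named in those notes. The 5 summary lines of each file stayed out of library sizes. Multiply placed reads came to 14.7% to 50.2% of a library (highest in the RCa1 libraries), those outside genes to 7.84% to 15.0% and ambiguous ones to 1.29% to 2.15%. Symbols, exon lengths and overlaps came from GENCODE M21 (GRCm38), which named 32860 of 37583 identifiers.

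The test was the quasi-likelihood test of edgeR 4.0.16 (R 4.3.3) after filterByExpr and TMM scaling, with 1 mean per group and all 8 libraries, adjusted by Benjamini and Hochberg over 13964 genes. Each SE was derived from the F statistic, as |log2 fold change| over its root. RPKM is CPM per kilobase of exon. The pipeline was tested on simulated data. Also run were DESeq2 1.42.0, scaling by RLE or by library size alone, other filters, fits of only the groups compared, a replicate block, the prefix as a term or only RCa18, and each library left out in turn.

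The members and lists were chosen with earlier results of these data known. All 9 members are named. Of each pathway list, up to 3 called genes per comparison with the smallest p and a mean over all libraries of at least 1 CPM could be named, and for likeness the 3 genes with the highest r and a mean of at least 8 CPM. Other genes named for a count, or described as named after their values were seen, lie outside that rule. List counts without naive replicate 1 were added after seeing the data. Promoters came from RefSeq (GRCm38.p6). One further marker of the B cell list is not reported here.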

Additional observations from a re-analysis of the deposited data

How the results depend on the processing

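Of 189 member values under the alternatives that kept all libraries or chose them by group or prefix, 171 kept their direction and their side of the threshold, and of 112 values with a library left out 91 did. Direction reversed for Gclc with CpG against naive, whose log2 fold change of 0.02 became -0.022 with DESeq2, -0.022 with RLE factors, -0.0021 with library size alone, -0.0012 with no filter, -0.0077 with a mean of at least 1 CPM and -0.099 in the RCa18 libraries alone, and ranged from -0.065 to 0.12 with a library left out. It also reversed for Hmox1 in TLR against naive, at 0.057 in the RCa18 libraries alone and -1.75 to 0.37 with a library left out (-1.75 and called without naive replicate 3, adjusted p = 0.0453). With CpG against naive 3 members were called, and 5 in the RCa18 libraries alone, which adds Nfe2l2 and Gclm. In TLR against CpG 4 members were called, 1 to 4 with a library left out (1 without TLR replicate 2, 2 without TLR replicate 1), and of all genes 5417 were called, 3516 to 5625 with a library left out (3516 without TLR replicate 1). A lone TLR library is assumed to vary like the other groups. The causes of these changes were not tested, and leaving out a library also lowers the number of samples.

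With the replicate block, 3, 4 and 6 members were called in the 3 comparisons, and 6665, 5541 and 8602 genes. Deviations from the group means correlated at 0.160, 0.104 and 0.00359 for naive and CpG libraries of the same number, at 0.127 and 0.0250 for naive and TLR, and at 0.326 and 0.297 for CpG and TLR. Not all were over 0.1, and only naive and CpG give 3 pairs, so the numbers were not taken as pairs. The block added the call of Gclc in TLR against naive (0.34, adjusted p = 0.0487) and changed no other call of a member. Nqo1 and Srxn1 had 39 and 70 counts in all libraries together and were tested only with no filter.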
